A study of Mus musculus with 6 samples.

Results

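The genes described here are 10 genes of the smooth muscle contractile programme: Acta2, Tagln, Cnn1, Myh11, Myocd, Des, Smtn, Actg2, Mylk and Lmod1. They were chosen by name, as textbook genes of contractile smooth muscle, and found on the arrays through the accession of each probe. Earlier results of these data were known when they were chosen. They are 10 of the 20883 genes that could be named on the arrays, and 11 of the 55681 probes belonged to them: Smtn had 2 probes and every other gene had 1.

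RNA came from mouse embryoid bodies, the aggregates that embryonic stem cells form when they differentiate in suspension. Cells of a mixed 129/C57BL6 background were kept without LIF, the cytokine that holds them undifferentiated, for 2 days in hanging drops and for 8 more days in nonadherent plates, so all RNA was taken at day 10. The groups were wild type (WT, 2 arrays) and the lines TKO_26 (2 arrays) and TKO_29 (2 arrays), each a knockout of Tet1, Tet2 and Tet3, the enzymes that oxidise 5-methylcytosine in DNA. The study asked how gene expression in differentiating cells differed without these enzymes. Its design text calls the arrays of a line technical replicas, so WT is 1 line, TKO is 2 lines, and p-values over arrays compare these lines only. Both TKO lines were set against the same WT arrays. A single slide carried all 6 arrays, and its columns separated WT from TKO, so the place on the slide and the genotype cannot be told apart.

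Vascular and visceral smooth muscle cells contract through smooth muscle myosin on actin filaments, switched on by myosin light chain kinase. Myocardin, a coactivator that binds serum response factor (SRF) on DNA elements called CArG boxes, drives many genes of this programme, and TGF-beta signalling promotes it. Several of these genes, Acta2, Tagln and Myocd among them, are also active in the embryonic heart. An embryoid body holds many cell types, so a signal may fall because fewer cells of a type are present or because each holds less of the RNA, and these cannot be told apart in bulk RNA.

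Myocd, Actg2 and Acta2 were lower in both TKO lines than in WT. Tagln, Des and Smtn did not pass the test in either line, and Cnn1 was lower by less than 2-fold. Myh11, Lmod1 and Mylk were too dim on the arrays to be tested. Mean differences over both lines ran from -0.08 in Des to -4.73 in Myocd on the log2 scale.

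A promoter stretch of 3 actin genes is shown first, since Acta2 is the only one of the 10 genes with boxes of this family in the table and the other muscle actins allow a comparison. The RefSeq promoter table (build GRCm38.p6) had entries for 6 of the 10 genes, Acta2, Cnn1, Des, Smtn, Mylk and Lmod1. The 250 bases before each gene's start were searched for the CArG box, which has a core of 6 A or T bases, and for a CArG-like box, in which 1 base of that core may be G or C. Each pattern reads the same on both strands, so 1 search covers both. The CArG-like form was added after no entry of the 6 genes held the strict form. Below, each stretch runs 5′ to 3′ along the gene's strand and capitals mark the boxes. Acta2 lies at chr19:34255374-34255623 (minus strand), Actc1, the cardiac actin, at chr2:114052876-114053125 (minus strand) and Acta1, the skeletal muscle actin, at chr8:123894776-123895025 (minus strand).
Acta2: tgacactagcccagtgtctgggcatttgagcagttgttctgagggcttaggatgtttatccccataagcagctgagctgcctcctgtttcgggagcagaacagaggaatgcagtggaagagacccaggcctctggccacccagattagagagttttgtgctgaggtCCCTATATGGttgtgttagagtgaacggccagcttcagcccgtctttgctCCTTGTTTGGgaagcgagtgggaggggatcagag
Actc1: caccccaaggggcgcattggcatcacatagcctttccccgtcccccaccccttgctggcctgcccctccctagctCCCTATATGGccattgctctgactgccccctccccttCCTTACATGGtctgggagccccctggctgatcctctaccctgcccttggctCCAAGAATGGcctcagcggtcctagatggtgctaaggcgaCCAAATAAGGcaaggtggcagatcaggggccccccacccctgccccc
Acta1: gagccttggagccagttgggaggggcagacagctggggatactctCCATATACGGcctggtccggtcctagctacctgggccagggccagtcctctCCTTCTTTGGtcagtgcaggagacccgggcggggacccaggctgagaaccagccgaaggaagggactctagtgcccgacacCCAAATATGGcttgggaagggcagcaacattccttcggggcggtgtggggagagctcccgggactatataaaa
The Acta2 stretch held 2 CArG-like boxes, starting 84 and 34 bases before the gene's start, and no strict box. The first of them, CCCTATATGG, also occurs in the Actc1 stretch, 175 bases before its start. Actc1 held 4 boxes, of which 1 was strict, CCAAATAAGG, 47 bases before the start. Acta1 held 3 boxes, with its strict box, CCAAATATGG, 73 bases before the start. Of all 32851 entries, 1.47% held a strict box and 8.59% a CArG-like one in a stretch of this length. Among the 6 genes with entries, 0 held a strict box and 1, Acta2, held CArG-like boxes. A match is a description of the letters and not evidence of binding. As given below, Acta2 and Actc1 were lower in the TKO lines and Acta1 was not called, so boxes of this kind stood before genes that did and did not pass the test.

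Signals are given as log2 of the scanner's processed signal minus the array's own 75th percentile, so 0 is the level of a bright probe on that array and each unit is a doubling. That percentile was taken over the 19157 probes whose signal was well above background throughout. A level is compared only with the same probe's level on other arrays. The 75th percentile before scaling ran from 5261 on WT replicate 1 to 24179 on TKO_29 replicate 1, and the share of spots well above background ran from 38.4% to 55.8%. Arrays of 1 line differed from each other with an SD over genes of 0.30 for WT, 0.38 for TKO_26 and 0.23 for TKO_29. As a check of the labels, the brightest Tet1 probe differed by -1.02 and -1.69 in TKO_26 and TKO_29, and the brightest Tet2 probe by -1.09 and -1.90. A dimmer Tet1 probe, well above background on all 6 arrays, differed by -0.08 and 0.23 and so was not lower. The brightest Tet3 probe differed by 1.05 and -0.62 and was not called, while the other Tet3 probes read lower in both lines. These were dim: 1 was well above background on 3 of the 6 arrays, neither of them TKO_26, and the other on the WT arrays only. The exons under these probes were not looked up, so they check the labels only in part.

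**Figure D1:**
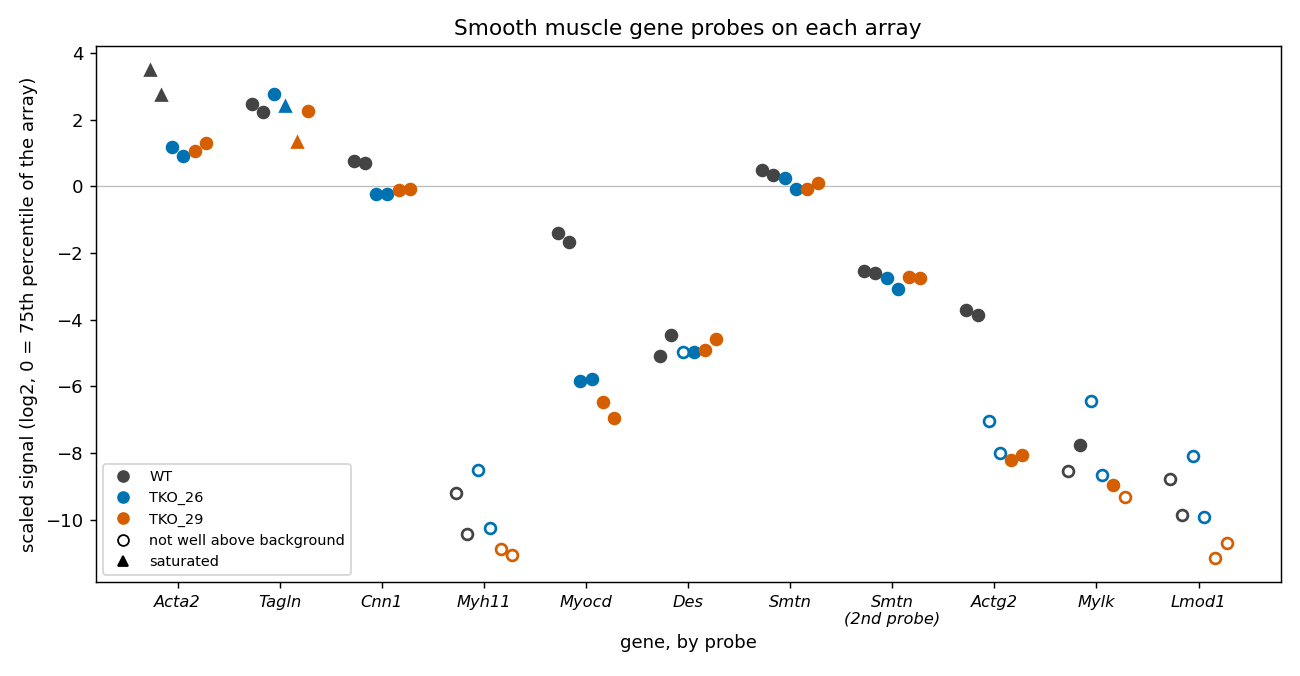
Scaled signal (log2, vertical axis) of each of the 11 probes (horizontal axis) on each of the 6 arrays, 1 symbol an array; triangles are saturated and open circles not well above background. The Myocd, Actg2 and Acta2 symbols of WT stand apart from and above those of both TKO lines, while those of Tagln and Des intermix.

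In the fit, a gene was called when limma's Benjamini-Hochberg adjusted p over 21410 tested features was under 0.05 and the difference was at least 2-fold in the same direction in both lines. Of the 10 genes, 7 passed the filter on dim probes, and 3 of these 7 were called lower, against 6.6% of all features. Called higher were 0 of the 7, against 4.04% of all features. At an unadjusted p under 0.05 in both lines, 4 of the 7 were lower and 0 higher, and 3328 and 3056 of all features. A gene bright in WT alone can enter through that filter, so the count is a description of the 7 genes. The median of the 7 genes' mean differences over both lines was -0.90, and that of all tested features was -0.04.

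**Figure D2:**
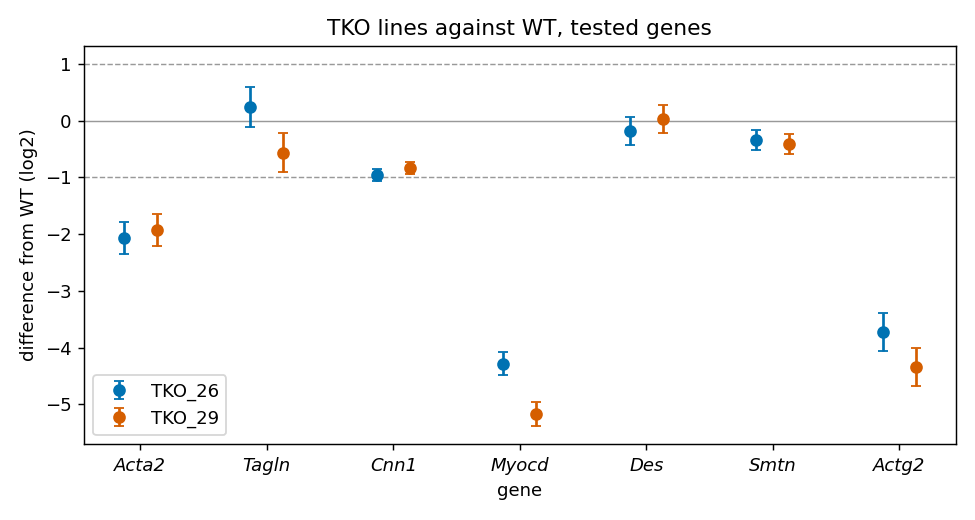
Difference from WT (log2, vertical axis) of the 7 tested genes (horizontal axis) in TKO_26 and TKO_29; bars are the standard error of the fit over arrays and dashed lines mark 2-fold. Myocd and Actg2 lie at -3.73 or below in both lines, Acta2 at -2.07 and -1.93, Cnn1 just inside the 2-fold line, and Tagln, Des and Smtn between -0.56 and 0.24.

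Myocd, which encodes the coactivator myocardin, showed the largest difference of the 7. Its scaled signal was -1.40 and -1.66 on the WT arrays, -5.83 and -5.79 on the TKO_26 arrays, and -6.46 and -6.95 on the TKO_29 arrays. All 4 TKO arrays were far below both WT arrays, and the probe was well above background on all 6. The fit gave a difference of -4.28 (SE 0.21, n = 2 arrays a line) for TKO_26, a 19.4-fold reduction, with a limma adjusted p of 0.000837. For TKO_29 it gave -5.17 (SE 0.21), a 36.1-fold reduction, with a limma adjusted p of 0.000586. TKO_29 read lower than TKO_26 by a further -0.89, a difference that limma did not call between the lines (adjusted p = 0.116).

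Actg2 is the gamma actin of visceral smooth muscle, as in gut and bladder. Its scaled signal was -3.71 and -3.85 in WT, -7.03 and -7.99 in TKO_26, and -8.21 and -8.04 in TKO_29. The WT arrays again stood above all 4 TKO arrays. The probe was not well above background on either TKO_26 array and was just above it on both TKO_29 arrays. For TKO_26 the reduction is thus a bound of at least 10.1-fold. On replicate 1 it used the array's lowest signal well above background (-6.24). On replicate 2 the reading of -7.99 lay above that array's lowest such signal (-8.02) and was kept. The measured means differed by -3.73 (SE 0.33, limma adjusted p = 0.00319). For TKO_29 the difference was -4.35 (SE 0.33, limma adjusted p = 0.00189), which is 20.4-fold.

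Acta2, the alpha actin of vascular smooth muscle and a component of stress fibres in myofibroblasts, had 10 spots an array. Its scaled signal was 3.48 and 2.76 in WT, 1.17 and 0.92 in TKO_26, and 1.08 and 1.31 in TKO_29. The 4 TKO values lay between 0.92 and 1.31, below both WT values. The WT spots had reached the scanner's ceiling: 6 of 10 were saturated on WT replicate 1 and 9 of the 9 kept were on WT replicate 2, against 0 on each TKO array. The reductions are therefore bounds, at least 4.20-fold in TKO_26 (difference -2.07, SE 0.28, limma adjusted p = 0.00912) and at least 3.80-fold in TKO_29 (difference -1.93, SE 0.28, limma adjusted p = 0.00851). The lines differed from each other by 0.14, which was not called (limma adjusted p = 0.766). The Acta2 call was lost, with the higher adjusted p at 0.0540 to 0.0664, when dim probes were kept in the test or when either TKO_29 array was left out, and the mean difference stayed between -2.06 and -1.94 in these settings.

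Before scaling, Acta2 read 58770 and 60065 in WT, 14766 and 21413 in TKO_26, and 50955 and 30232 in TKO_29. The signal of TKO_29 replicate 1 was thus close to those of WT before its array, the brightest of the 6, was scaled down. The spread of the 10 spots within an array was small, with a coefficient of variation from 2.75% to 10.0%. All 4 TKO arrays read below both WT arrays before scaling as well, TKO_29 replicate 1 by the least. Over all the alternatives tried, the mean Acta2 difference of both lines ran from -2.36 to -1.32.

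**Figure D3:**
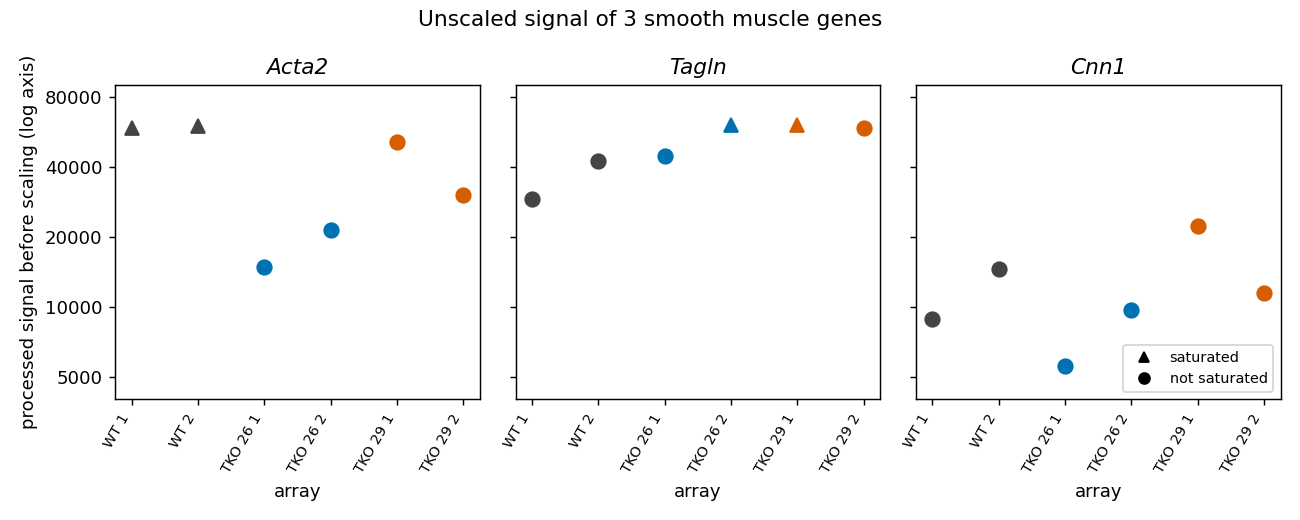
Processed signal before scaling (log axis) of Acta2, Tagln and Cnn1 on each of the 6 arrays (horizontal axis); triangles are saturated. Acta2 is saturated on both WT arrays and Tagln on 1 array of each TKO line, and the Cnn1 signal of TKO_29 replicate 1 is the highest of the 6 before scaling.

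Tagln encodes transgelin (SM22 alpha), an actin-binding protein and an early marker of smooth muscle that many mesenchymal cells also express. Its scaled signal was 2.47 and 2.24 in WT, 2.77 and 2.42 in TKO_26, and 1.32 and 2.27 in TKO_29. The groups overlapped, and the lowest value came from a saturated spot on TKO_29 replicate 1. On that array the highest scaled signal of any probe was 1.78, so a level as high as that of WT could not have been read there. TKO_26 replicate 2 was saturated as well. The differences were 0.24 (SE 0.35, limma adjusted p = 0.659) in TKO_26 and -0.56 (SE 0.35, limma adjusted p = 0.249) in TKO_29, neither of which passed the test. Before scaling, Tagln read 29094 and 42143 in WT and 44646 to 60655 in the TKO arrays. Tagln thus gave no call in the same arrays in which Acta2 was called lower, and its sign changed with the scaling.

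Cnn1, the smooth muscle calponin that binds actin and restrains myosin activity, was lower in both lines by a small and even amount. Its scaled signal was 0.75 and 0.71 in WT, -0.24 and -0.22 in TKO_26, and -0.12 and -0.09 in TKO_29. Arrays of a line agreed closely and the WT arrays stood above the rest. The difference was -0.96 (SE 0.11, limma adjusted p = 0.00601) in TKO_26 and -0.83 (SE 0.11, limma adjusted p = 0.00675) in TKO_29. These are 1.95-fold and 1.78-fold, under the 2-fold asked of a call. With the fold requirement dropped, a choice made after the values were seen, 4 of the 7 genes were lower in both lines, against 10.8% of all features. With dim probes kept in the test, or without WT replicate 1 or either TKO_29 array, the higher adjusted p of Cnn1 was 0.0505 to 0.0609 and so missed the threshold.

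Smtn encodes smoothelin, a cytoskeletal protein of contractile smooth muscle. Its brighter probe read 0.49 and 0.35 in WT, 0.25 and -0.09 in TKO_26, and -0.09 and 0.11 in TKO_29. The WT values were the highest, by a narrow margin. The differences, -0.34 (SE 0.17, limma adjusted p = 0.225) and -0.41 (SE 0.17, limma adjusted p = 0.120), did not pass the test. The dimmer probe read -2.55 and -2.61 in WT and -3.07 to -2.72 in the TKO arrays, a difference of -0.33 in TKO_26 and -0.15 in TKO_29. Both probes thus gave the same sign.

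Des encodes desmin, the intermediate filament protein of muscle cells of every kind, and had 10 spots an array. Its scaled signal was -5.08 and -4.47 in WT, -4.96 and -4.96 in TKO_26, and -4.91 and -4.58 in TKO_29. Every TKO value fell between the WT values. The differences were -0.19 (SE 0.25, limma adjusted p = 0.632) and 0.02 (SE 0.25, limma adjusted p = 0.947). All 10 spots were well above background on 5 arrays and 9 of 10 were on TKO_26 replicate 1, so this was a low but measured signal.

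The other 3 genes were too dim for a test. Myh11 encodes the smooth muscle myosin heavy chain, the marker most specific to mature smooth muscle, and Lmod1 encodes leiomodin, which nucleates actin filaments in smooth muscle. Both were not well above background on any of the 6 arrays. Their unscaled signals ran from 5.69 to 17.9 for Myh11 and from 7.32 to 24.3 for Lmod1. The Mylk probe, for the myosin light chain kinase, was well above background on WT replicate 2 and TKO_29 replicate 1 only, with unscaled signals of 41.0 and 49.0 there and 14.2 to 76.0 on the other arrays. No direction can be read from these 3 genes. The defining myosin of contractile smooth muscle was thus not detected in WT embryoid bodies either, whereas Acta2 and Tagln, which other cells share, reached saturation on some arrays.

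In TKO_26 alone 3 of the 7 genes were called lower, against 7.81% of all features, and in TKO_29 alone the same 3 were, against 11.2%. Between the TKO lines 0 of 7 genes were called by limma, against 0% of all features. At an unadjusted p under 0.05, 1 member and 4790 features differed between the lines. When each line was averaged first, so that 2 TKO lines stood against 1 WT line, limma called 0 of the 7 genes lower, against 0.752% of all features. The 3 genes came close, with adjusted p = 0.0518 for Actg2, 0.0534 for Myocd and 0.0895 for Acta2. At an unadjusted p under 0.05 there were 4 of the 7, Acta2, Cnn1, Myocd and Actg2, and 3839 of all features. The genotype comparison over lines, with 1 residual degree of freedom, thus called none of these genes under the chosen setting. Under other settings it called up to 3 of them. Its calls over all features, in either direction, were 194 in the chosen setting and up to 1801 in the others.

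The patterns of the 7 genes over the 6 arrays were also compared as a description, each gene centred on its own mean. Correlation with their mean profile was 0.997 for Actg2, 0.986 for Myocd, 0.967 for Acta2, 0.961 for Cnn1 and 0.889 for Smtn. It was 0.331 for Tagln and 0.112 for Des. Each gene is part of the mean, and Myocd and Actg2, with the largest differences, weigh most in it. Among the named genes most like this profile, of those well above background on every array, were Cd44 (r = 0.999), Tmem164 (r = 0.999), Cnppd1 (r = 0.998), Gap43 (r = 0.998) and Tstd1 (r = 0.998), over 6 arrays of 3 lines. Cd44, a hyaluronan receptor on the cell surface, was 7.44-fold lower in TKO_26 and 9.34-fold lower in TKO_29, and both were called. Gap43, a growth cone protein of neurons, was 3.41-fold and 4.56-fold lower, also called. Tmem164 and Cnppd1 differed by less than 2-fold in both lines, so a like pattern did not mean a like size.

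Folds below are given for TKO_26 and then TKO_29, and "at least" marks a line in which 1 or both arrays were not well above background. Other genes of the contractile apparatus and cytoskeleton were taken from a list of 30, all of which were tested. In both lines 6 were lower, 1 was higher and 23 were not called, with a median difference of -0.66. Of all features, 6.6% were called lower in both lines and 4.04% higher. Nexn, an actin-binding protein that striated muscle also expresses, was lower by 3.99-fold and 3.88-fold. Itga8, an integrin chain of smooth muscle and mesenchyme, was lower by at least 8.06-fold in TKO_26, and by 5.88-fold in TKO_29. Prkg1, the kinase through which cyclic GMP relaxes smooth muscle, was lower by 2.97-fold in both lines. Fhl2 (2.16-fold and 2.58-fold), Synm (2.09-fold and 2.45-fold) and Itga1 (at least 2.10-fold, and 3.98-fold) completed the genes called lower. Aoc3, an amine oxidase of smooth muscle and fat, was higher by 2.14-fold and 2.68-fold. Several widely expressed genes of the list, such as Myl6, Tpm1, Csrp1 and Flna, were saturated on most arrays, so their differences depend on each array's ceiling. The highest scaled signal of any probe was 3.92 and 3.34 in WT, 4.72 and 2.85 in TKO_26, and 1.78 and 2.84 in TKO_29. A level at the WT ceiling could thus not be read in TKO_29, and no fold is given. The list median includes 6 genes saturated on some array. Myl9, the regulatory myosin light chain of smooth muscle, was not saturated and differed by -0.06 and -0.20, without a call.

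Of 32 regulators of the programme 31 were tested, with a median difference of -0.82. In both lines 8 were lower and 0 higher, against 6.6% and 4.04% of all features. At an unadjusted p under 0.05 in limma's fit, 17 were lower and 1, Klf4, was higher in both lines. Of all 21410 features, 3328 were lower and 3056 higher at that threshold. Srf, the DNA-binding partner of myocardin, read 0.11 and 0.23 in WT and -0.13 to 0.21 in the TKO arrays. Its differences, -0.12 and -0.06, did not pass the test. The SRF coactivators of the myocardin family differed little too: Mrtfa by -0.27 and -0.60, and Mrtfb by -0.40 and -0.53. Thus Myocd was called and its relatives and partner were not, each by less than 2-fold.

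The TGF-beta ligands differed among themselves. Tgfb2 was lower by 3.40-fold in TKO_26 and 4.15-fold in TKO_29, with values of -0.96 and -1.07 in WT and -3.16 to -2.77 in the TKO arrays, and its second probe gave the same direction. Tgfb1, at -0.98 and -0.77, and Tgfb3, at -0.78 and -0.77, were not called. The receptor gene Tgfbr1 was lower by 2.51-fold and 2.85-fold on its brighter probe, and its dimmer probe differed by -1.06 and 0.01. Pdgfrb, the PDGF receptor of mural cells, was lower by 9.74-fold and 8.44-fold. Among transcription factors, Foxf1 of visceral mesoderm was lower by 7.59-fold and 7.69-fold, and Gata6 by 5.12-fold and 4.19-fold. Prrx1, a mesenchymal factor, was lower by 3.68-fold and 3.55-fold. Mef2c, which acts in heart and smooth muscle, was lower by at least 2.52-fold and at least 9.36-fold, and was not well above background on 4 of 4 TKO arrays. Klf4, a repressor of contractile genes and a pluripotency factor, differed by 1.29 and 0.996, and the TKO_29 value was just under 2-fold, so it was not called.

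Among 23 actin isoforms and family relatives, 20 were tested, with a median difference of -0.56. In both lines 6 were lower and 0 higher, against 6.6% and 4.04% of all features. At an unadjusted p under 0.05 in limma's fit, 8 were lower and 0 higher, against 3328 and 3056 of all 21410 features. Actc1 was lower by 36.9-fold and 35.9-fold, with values of 3.09 and 2.92 in WT and -2.20 to -2.15 in the TKO arrays. Its probe was saturated on 1 WT array, so these folds may be compressed. Acta1 differed by -0.36 and -0.03, without a call. The cytoplasmic actins Actb and Actg1 were saturated on 6 and 5 arrays, so no fold is given. The list median includes them among 6 genes saturated on some array. Actin genes are close in sequence, and how far the probes tell them apart was not tested. Vim, the intermediate filament of mesenchymal cells, was lower by 4.29-fold and 3.45-fold. The tropomodulins, which cap actin filaments, were lower as well: Tmod2 by 3.12-fold and 2.96-fold, Tmod3 by 3.89-fold and 2.54-fold, and Tmod1 by at least 7.13-fold and 17.0-fold. Lmod3, a leiomodin of striated muscle, was lower by at least 3.11-fold and 3.90-fold.

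**Figure D4:**
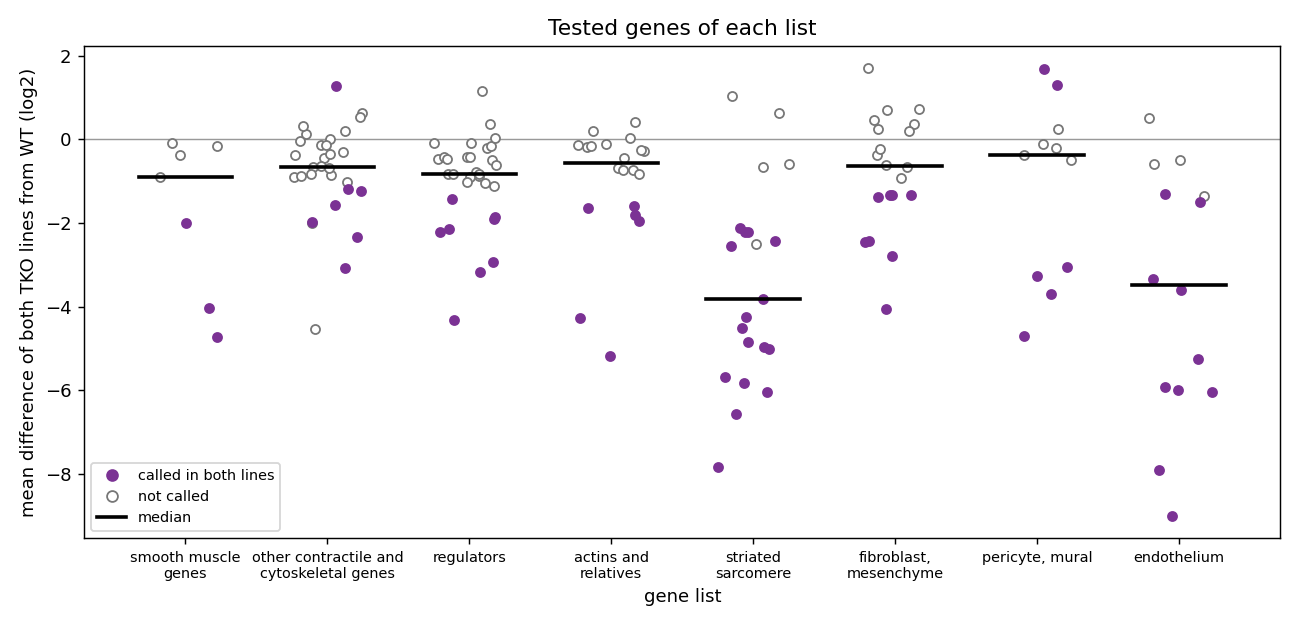
Mean difference of both TKO lines from WT (log2, vertical axis) for each tested gene of 8 gene lists (horizontal axis), with the median of each list as a bar and genes called in both lines filled. The striated sarcomere and endothelial lists have medians of -3.82 and -3.48, below those of the smooth muscle genes and the remaining lists.

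Many markers of other cell types were lower in the same arrays. For comparison, 6.6% of all features were called lower in both lines and 4.04% higher. Of 25 striated muscle sarcomere genes 21 were tested and 16 were lower in both lines, among them Myl7 (at least 184-fold and 240-fold), Tnnt2 (103-fold and 87.8-fold) and Myh6 (51.2-fold and 61.8-fold), all genes of heart muscle. The mean scaled signal of these 21 genes was -1.70 and -1.66 on the WT arrays and -5.22 to -5.06 on the TKO arrays. Nebl and Myoz2 were too dim to be tested, and no probe could be matched to Tnnt1. Of 20 fibroblast and mesenchyme markers 8 were lower, such as Twist2 (14.8-fold and 18.9-fold) and Col3a1 (6.08-fold and 4.93-fold). Their mean was -2.12 and -1.93 in WT and -2.90 to -2.76 in TKO. The collagen genes Col1a1 and Col1a2, with differences of -0.33 and 0.20 in TKO_26 and -0.42 and 0.28 in TKO_29, were not called.

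Of 14 pericyte and mural cell markers 11 were tested, 4 were lower (Rgs5, Rgs4, Tbx2 and Heyl) and 2 higher (Vtn and Ndufa4l2), while Abcc9, Kcnj8 and Tbx18 were too dim to be tested. Rgs5, a defining pericyte gene, was lower by at least 22.3-fold in TKO_26 and 15.8-fold in TKO_29. The mean of the 11 was -3.81 and -3.76 in WT and -5.01 to -4.83 in TKO. Of 14 endothelial markers 10 were lower, led by Icam2 (at least 228-fold and 530-fold), and their mean was -1.79 and -1.78 in WT and -5.72 to -5.15 in TKO. Cdh5, the cadherin of endothelial junctions, was lower by at least 51.0-fold and 63.7-fold, whereas Pecam1 differed by 0.46 and 0.57 without a call. Most tested striated and endothelial genes were thus lower in the arrays in which Myocd, Actg2 and Acta2 were. Here too a gene bright in WT alone can enter through the filter on dim probes, so these counts are descriptions. With signal demanded on all 6 arrays, 10 of 12 striated and 3 of 7 endothelial genes were called lower. Of the fibroblast markers 7 of 18 were, and of the pericyte markers 0 of 5, against 733 of 15349 features. Shares in the chosen setting follow. Of the fibroblast markers 40% were called lower and of the pericyte markers 36.4%, beside 42.9% of the 7 genes and 6.6% of all features. Called higher were 0% of the fibroblast markers and 18.2% of the pericyte markers, against 4.04% of all features. The part of these markers in the result was not tested. Heart muscle expresses Myocd, Acta2, Tagln and Des as well. Of these 4 genes Myocd and Acta2 were called lower, and Tagln and Des were not called. The Tagln probe was saturated on 1 array of each TKO line. Which cell types these signals came from was not tested.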

How the data were processed

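Cy3-labelled RNA of 6 embryoid body samples was read on 1-colour Agilent arrays, per the labels' protocols. Per the file headers, Agilent Feature Extraction 10.5.1.1 gave each spot an intensity (processed signal, background-subtracted) and flags for signal well above background, saturation and outliers. A matrix of log2 values deposited by the authors, of processing not given in the sources used here, served as an alternative. Each of its columns followed the log2 signal of its own array (r 0.995 to 1.00), but for TKO_29 replicate 1 the column was as close to another array (r 0.996). The members and gene lists were chosen with earlier results of these data known.

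Control spots and outlier-flagged spots were left out, saturated spots were kept, and spots of a probe were averaged. Of 55681 probes, 27503 (49.4%) took a symbol from the RefSeq table of GRCm38.p6 by accession. Log2 signals minus each array's 75th percentile were fitted with limma 3.58.1 (lmFit, eBayes; R 4.3.3) as 3 groups with 3 residual degrees of freedom, or on line averages with 1. Probes were tested where both arrays of some line were well above background, and the brightest probe stood for its gene. The fit was also run on simulated arrays with known changes and independent noise. These held no variation between lines and no saturation, so they do not check those limits. "At least" folds put the array's lowest signal well above background, or the saturated value, in place of a level not measured. A dim reading that lay above that lowest signal was kept. Genes named were all members, up to 8 called genes a list by size, the actins, 7 chosen regulators and the 6 genes most like the members; Myl9, Myl6, Tpm1, Csrp1, Flna, Tmod1, Col1a1, Col1a2, Pecam1, Cdh5 and second probes were named after their values were seen. A few genes that this rule names are not reported here. Alternatives covered background correction, scaling, the filter, probe choice, the variance trend, the matrix, a replicate block and leaving out each array. Precision is limited by the number of arrays.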

Additional observations from a re-analysis of the deposited data

How the results depend on the processing

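Myocd was called lower in both lines under every alternative run, with mean differences of -4.86 to -3.92. Actg2 was called in every alternative that tested it (-4.27 to -2.68). With signal demanded on all 6 arrays it was not tested, nor was Des, and 2 genes were called. With probes that saturate on any array left out, chosen after seeing the data, Acta2 and Tagln were not tested. The Acta2 call was lost without the filter on dim probes (-1.999, adjusted p = 0.0540), without TKO_29 replicate 1 (-1.94, 0.0664) and without TKO_29 replicate 2 (-2.06, 0.0605). The cause was not tested, here and for the other changes given.

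On line averages, 0 genes became 3 with normexp background or the authors' matrix, and 2 with the mean of all probes, the variance trend or saturated probes left out. Line averages over all features then gave 822 calls with normexp and 1801 in the matrix. They gave 294 with the mean of all probes, 1517 with the variance trend and 504 with saturated probes left out. Leaving out each array in turn gave 0 to 2 on line averages and 0 to 1 between the TKO lines, the 1 being Actg2 without TKO_26 replicate 2. Neither Tagln nor Des was called in any setting that tested it. Tagln turned to 0.12 under quantile normalisation, 0.27 in the matrix and 0.0763 without TKO_29 replicate 1, and ran from -0.40 to 0.0763 with each array left out. Des turned to 0.0121 under quantile normalisation, 0.0284 in the matrix, 0.22 without WT replicate 2 and 0.0015 without TKO_29 replicate 1, and ran from -0.39 to 0.22.

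Over all features, 1413 lower and 864 higher calls became 890 and 306 with normexp, and the higher share was 25.6% against 37.9%. Normexp also shifted the median of all features by -0.12. Calls lower on demand for signal on all 6 arrays were 733, and without the filter 893. Calls on line averages numbered 194 in the chosen setting, 1801 in the matrix and 0 under quantile normalisation, and calls between the TKO lines 0, or 1511 without TKO_26 replicate 2. With signal on all 6 arrays, lower counts fell past 1.5 times for 3 lists, but fewer genes were tested. They were 10 of 12 striated, 0 of 5 pericyte and 3 of 7 endothelial genes, against 733 of 15349 features. In the chosen setting these were 16 of 21, 4 of 11 and 10 of 14. Without the filter, lower counts fell for other contractile (3 of 30) and fibroblast genes (5 of 20), against 893 of 36873 features. Fibroblast genes also numbered 5 without WT replicate 1 or TKO_29 replicate 1. In the higher direction, regulators numbered 1 with the percentile over all probes, quantile normalisation or the matrix, contractile genes 0 with normexp or the matrix, pericyte genes 1 without the filter or TKO_29 replicate 2, and striated genes 1 without WT replicate 2. With no fold requirement 13 of 31 regulators were lower and 1 higher, and 2 of 20 fibroblast genes were higher. Of all features 10.8% were lower by that rule. The share of all features higher by that rule is not given here, so the higher counts have no background beside them.

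The replicate block called 3 of the 7 genes in both lines, as without it, and 1327 lower and 749 higher features. Deviations of same-numbered arrays correlated with r of 0.23, -0.08 and -0.28 over 13239 genes, with no common sign. Whether a replicate number marks a shared batch cannot be read from these values. Saturation bounds Acta2 and Tagln, and low signal bounds Actg2 and leaves Myh11, Lmod1 and Mylk untested.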
